A study of Homo sapiens with 6 samples.

Results

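The genes described here are the 10 that encode core and catalytic subunits of Polycomb repressive complex 2 (EZH1, EZH2, EED and SUZ12), the DNA methyltransferases (DNMT1, DNMT3A and DNMT3B) and the TET dioxygenases (TET1, TET2 and TET3). They were taken by NCBI Gene ID, and all 10 were found among the 16623 genes measured. The cells were MDA-MB-231, a human triple-negative breast cancer line, grown as adherent cultures in serum-containing medium. Cultures received DMSO, the solvent, or PCI-24781, a small-molecule inhibitor of histone deacetylases, at 100 nM or 200 nM, and were collected after 24 h or 48 h. This gave 6 RNA-seq libraries, 1 for each combination of treatment and time, so no difference below has a replicate check and no p-value was computed. Expression was deposited as FPKM, the fragments per kilobase of transcript scaled to a common number of mapped fragments.

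Polycomb repressive complex 2 (PRC2) methylates H3K27, a lysine in the tail of histone H3, and this mark is found on silenced developmental genes. EZH2 or its paralogue EZH1 is the catalytic subunit, EED binds the mark and SUZ12 holds the complex together. DNMT1 copies DNA methylation onto the new strand at replication, DNMT3A and DNMT3B methylate DNA de novo, and the TET enzymes oxidise methylcytosine as the first step of its removal. EZH2 and DNMT1 are known as genes of dividing cells, whereas EZH1 is also expressed in resting cells.

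The cell line was checked against its markers. The 5 mesenchymal markers VIM, CD44, AXL, CAV1 and EGFR summed to between 2385.43 and 2845.71 FPKM, while the hormone receptor genes ESR1 and PGR stayed at or below 0.04. The luminal markers summed to 23.21 in DMSO 24 h and to between 34.36 and 43.37 in the other libraries, and most of this was the keratin gene KRT19. The leukocyte markers found summed to between 1.09 and 2.47, with CD3E at or below 0.04. Most of this was PTPRC, between 0.76 and 1.01, and CD14, which was 0.28 in DMSO 24 h and 1.47 at 200 nM 48 h. The endothelial markers summed to between 0.39 and 2.38, with VWF and CDH5 at or below 0.03. Most of this was PECAM1, at 0.38 in DMSO 24 h and 2.33 at 200 nM 48 h. The sums of these last 3 lists were lowest in DMSO 24 h, and their part in the results was not tested. The depth that the spacing of low values in short genes implies was about 15700000 to 18000000 fragments per library.

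Against DMSO 48 h, the library labelled 100 nM 48 h went against the pattern of 24 h. Among 521 genes that were at least 2-fold higher at 200 nM 24 h, 439 lay below DMSO 48 h in the library labelled 100 nM 48 h and 496 lay above it in the library labelled 200 nM 48 h. Over all tested genes, 52.4% were below DMSO 48 h in the former and 48.6% in the latter. The library labelled DMSO 48 h stands in each of these comparisons, so which library is the odd one cannot be told. A difference between times and an exchange of labels cannot be told apart here. Values of the 48 h libraries are therefore given against either DMSO library.

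The upstream sequences of 4 members are shown because EED, SUZ12 and DNMT1 were lower at 200 nM 24 h while EZH1 was not. Each of these genes has a single start in the RefSeq table (assembly GRCh38.p14), and the 250 bases before that start are printed from 5′ to 3′ on the strand of the gene. DNMT3B was also lower and has a single start, but is not shown. Capitals mark the E2F-type words TTTCCCGC, TTTCGCGC, TTTGCCGC and TTTGGCGC, and CCAAT, the word bound by NF-Y, on either strand. The windows are chr17:42745041-42745290 on the minus strand for EZH1, chr11:86244503-86244752 on the plus strand for EED, chr17:31936757-31937006 on the plus strand for SUZ12 and chr19:10194954-10195203 on the minus strand for DNMT1.
EZH1: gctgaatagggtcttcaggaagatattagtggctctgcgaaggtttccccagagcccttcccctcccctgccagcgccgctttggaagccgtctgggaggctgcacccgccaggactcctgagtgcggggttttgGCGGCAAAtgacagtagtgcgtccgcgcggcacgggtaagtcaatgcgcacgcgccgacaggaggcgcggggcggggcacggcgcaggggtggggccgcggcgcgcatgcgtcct
EED: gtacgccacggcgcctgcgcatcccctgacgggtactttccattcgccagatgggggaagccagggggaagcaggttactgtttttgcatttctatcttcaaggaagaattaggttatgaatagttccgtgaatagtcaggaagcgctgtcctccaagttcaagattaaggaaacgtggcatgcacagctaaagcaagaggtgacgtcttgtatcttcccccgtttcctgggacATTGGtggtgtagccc
SUZ12: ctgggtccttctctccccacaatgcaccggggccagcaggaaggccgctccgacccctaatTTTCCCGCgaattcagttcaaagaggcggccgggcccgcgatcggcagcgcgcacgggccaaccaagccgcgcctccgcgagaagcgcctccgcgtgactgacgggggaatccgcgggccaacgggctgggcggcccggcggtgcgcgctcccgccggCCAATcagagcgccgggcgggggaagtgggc
DNMT1: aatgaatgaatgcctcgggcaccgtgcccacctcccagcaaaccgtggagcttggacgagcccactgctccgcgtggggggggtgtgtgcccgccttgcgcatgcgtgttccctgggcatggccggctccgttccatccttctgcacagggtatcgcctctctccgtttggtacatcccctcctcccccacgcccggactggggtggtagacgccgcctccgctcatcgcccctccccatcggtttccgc

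An E2F-type word was present upstream of EZH1 and SUZ12, ending 108 and 182 bases before the start, and was not found in the windows of the other members. Only the listed starts were searched, and whether these cells use them was not measured. This was 2 of the 20 starts listed for the 10 members, or 10.0%, against 2.8% of all 35116 starts and 4.2% of the 14338 starts of expressed genes. CCAAT was found at 7 of the 20 starts, or 35%, against 32.0% of all starts. It occurred 4 times at one start of EZH2 and 1 time each for EED, SUZ12, DNMT3B and one start of TET3. Some starts of TET1 held it 2 times. The DNMT1 window held neither kind of word. The windows had a G and C content of 72.8% for SUZ12, 67.6% for EZH1, 66.8% for DNMT1 and 51.2% for EED, against a median of 64.4% for expressed genes. These matches are descriptions of the letters and say nothing of binding.

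In every library DNMT1 was the highest and TET1 the lowest of the members. DNMT1 lies on chromosome 19 from 10244020 to 10305811 in hg19, the build named in the submitters' processing notes and used for the gene positions here. Its FPKM of 79.25 in DMSO 24 h was at or above that of 94.6% of all genes. SUZ12 (chromosome 17, 30264044 to 30328057) and EZH2 (chromosome 7, 148504464 to 148581441) came next, at 43.02 and 42.69, and their order changed between libraries. EED (chromosome 11, 85955426 to 85989852) had 16.84, EZH1 (chromosome 17, 40852293 to 40897071) had 7.76 and DNMT3B (chromosome 20, 31350191 to 31397162) had 6.42. Below these were TET3 (chromosome 2, 74213531 to 74335303) at 3.51, DNMT3A (chromosome 2, 25455830 to 25565459) at 2.89, TET2 (chromosome 4, 106067032 to 106200960) at 2.66 and TET1 (chromosome 10, 70320117 to 70454244) at 0.28. With no replicates, neighbours this close cannot be ordered. TET1 was below an FPKM of 1 throughout, so 9 of the 10 members passed the filter on low values. DNMT1 made up between 84.1% (200 nM 48 h) and 89.5% (DMSO 24 h) of the summed FPKM of the DNMT genes.

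**Figure D1:**
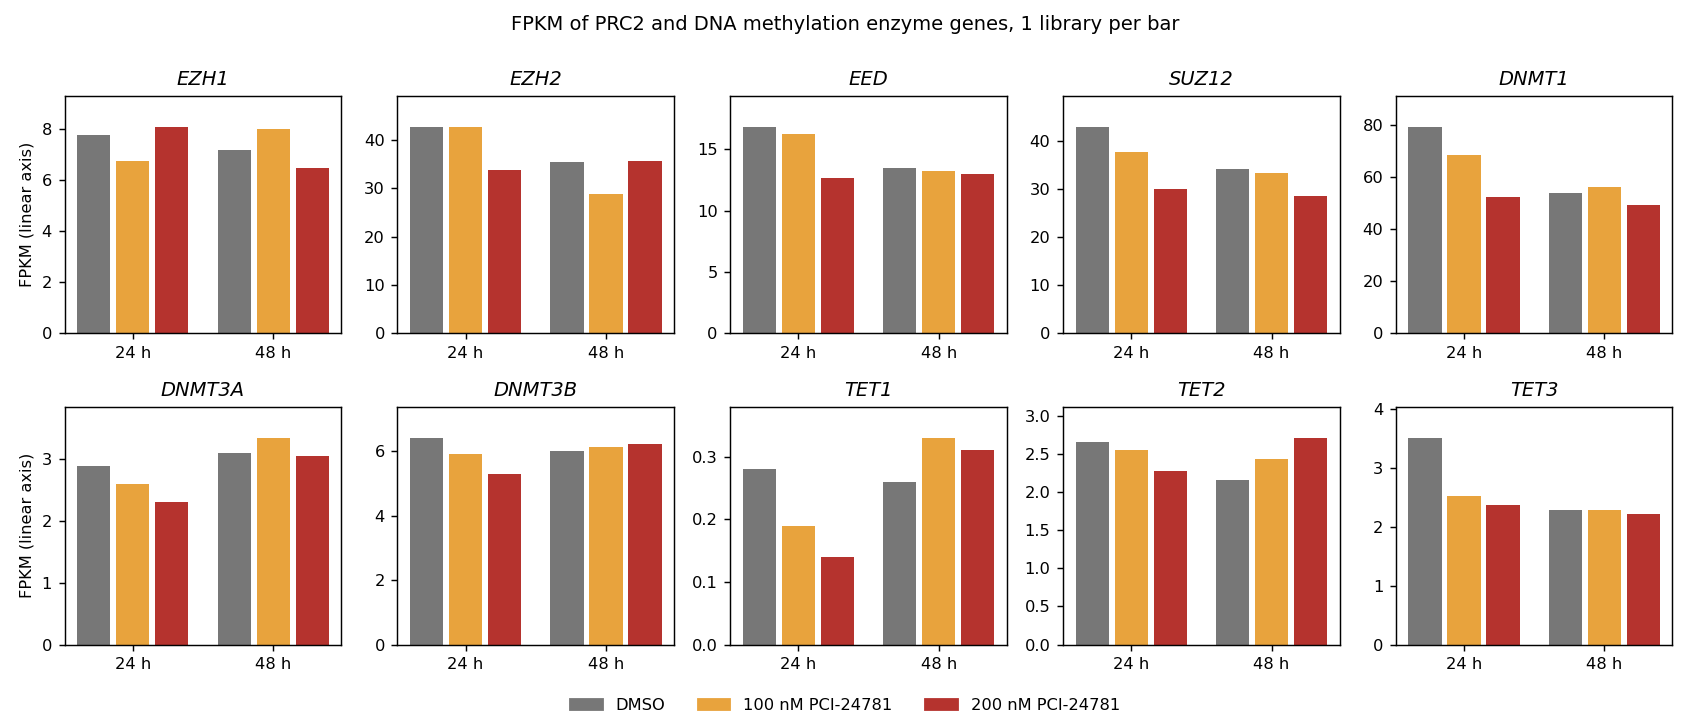
FPKM of the 10 genes (vertical axes, linear, starting at 0, with a scale for each gene) in the 6 libraries, 24 h on the left and 48 h on the right of each panel. Each bar is 1 library, so there are no error bars. At 24 h SUZ12 stepped down from 43.02 over 37.63 to 30.01, while EZH1 was at 7.76, 6.76 and 8.09.

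To ask how these genes differed under PCI-24781 at 24 h, each treated library was compared with DMSO 24 h. At 200 nM, 9 of the 10 members were lower than in DMSO and EZH1 was not. After rescaling with median-of-ratios factors EZH1 was level with DMSO, at -0.00 on the log2 scale, and all 10 were at or below it. None of the 9 members that reached an FPKM of 1 differed 2-fold. DNMT1, TET3, SUZ12, EED and EZH2 were at 65.8%, 67.5%, 69.8%, 75% and 78.9% of their FPKM in DMSO. TET1, below the filter, was at 50%, with an FPKM of 0.14 against 0.28. In RNA from a whole culture, fewer cells expressing a gene and less of its RNA per cell cannot be told apart.

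Among the PRC2 genes, EZH2, EED and SUZ12 were lower at the high dose and EZH1 was not. In the order DMSO, 100 nM, 200 nM, which is kept below, EZH2 had FPKM values of 42.69, 42.72 and 33.70. The low dose was level with the control, and the high dose differed by -0.33 in log2(FPKM + 1), the scale of all differences below. EED, with 16.84, 16.27 and 12.63, had the same shape and differences of -0.05 and -0.39. SUZ12 values were 43.02, 37.63 and 30.01, so its differences of -0.19 and -0.51 came in steps with the dose. EZH1 values of 7.76, 6.76 and 8.09 gave differences of -0.17 and 0.05. EZH1 thereby made up 15.4%, 13.7% and 19.4% of the summed FPKM of both EZH genes.

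Among the DNA methylation genes, DNMT1 had by far the highest level. Its values of 79.25, 68.38 and 52.18 gave differences of -0.21 and -0.59. Of the 11660 genes tested at 200 nM 24 h, 850, or 7.3%, had a more negative difference. The de novo enzymes were closer to the control. DNMT3A had 2.89, 2.60 and 2.31, and DNMT3B had 6.42, 5.93 and 5.31, each with a difference of -0.23 at the high dose. The TET genes, whose products act against methylation, were lower as well. TET3 had 3.51, 2.53 and 2.37, and its difference of -0.35 was the most negative of the members at 100 nM, where 5.9% of genes were lower still. TET2 had 2.66, 2.55 and 2.28. TET1 had 0.28, 0.19 and 0.14, which rest on only about 47, 31 and 23 fragments. The order of the differences depends on the pseudocount, which shrinks those of low genes. With 0.1 in place of 1, TET1, DNMT1 and TET3 had -0.66, -0.60 and -0.55 at the high dose. The summed FPKM of the DNMT genes was 13.7, 14.6 and 12.5 times that of the TET genes.

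The members were read against all genes. A gene was called when it differed at least 2-fold and reached an FPKM of 1 in one of the libraries compared. At 200 nM 24 h, 1.48% of tested genes were called lower and 4.47% higher, and at 100 nM 24 h 0.131% were called lower and 1.35% higher, with 0 of the 10 members in each case. Counting differences of any size, 9 of the 10 members and 48.6% of genes were lower at 200 nM. At 100 nM these were 9 of 10, all but EZH2, and 48.1%, and with median-of-ratios factors EZH2 was at -0.05. The median difference of the members was -0.28 at the high dose and -0.11 at the low dose, against 0.01 for all tested genes at either dose. Counts and medians of the 10 members here and below include TET1, while those of all genes keep to the filter. Without TET1, 8 of 9 members were lower at either dose, with medians of -0.33 at the high dose and -0.11 at the low dose. At 200 nM the middle 50% of genes lay between -0.25 and 0.31, and EZH2, EED, SUZ12, DNMT1 and TET3 were below this range. With a 1.5-fold threshold 7.58% of genes were called lower, and DNMT1 was the 1 member among them.

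At 24 h, 8 of the 10 members had DMSO above 100 nM and 100 nM above 200 nM, all but EZH1 and EZH2, as had 30.7% of genes. Both steps share the 100 nM library. Counting error was approximated from the inferred depth and the shortest annotated transcript. For the log2 ratio of FPKM at 200 nM 24 h, its 95% interval was from -0.66 to -0.55 for DNMT1, from -0.60 to -0.44 for SUZ12 and from -1.72 to -0.28 for TET1. The intervals of 8 members lay off 0, and those of EZH1 (-0.10 to 0.22) and DNMT3A (-0.77 to 0.12) held it. DNMT3A has 4 transcripts, the shortest of 1775 bases, and a longer one would give more fragments and a narrower interval. For the low dose, 4 members had intervals off 0 after 24 h and 2 after 48 h, and for the high dose 3 did after 48 h. Between the libraries labelled DMSO, where no drug differs only if the labels hold, 6 did. The intervals were not computed for all genes. They cover counting error only, and variation between cultures was not measured.

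**Figure D2:**
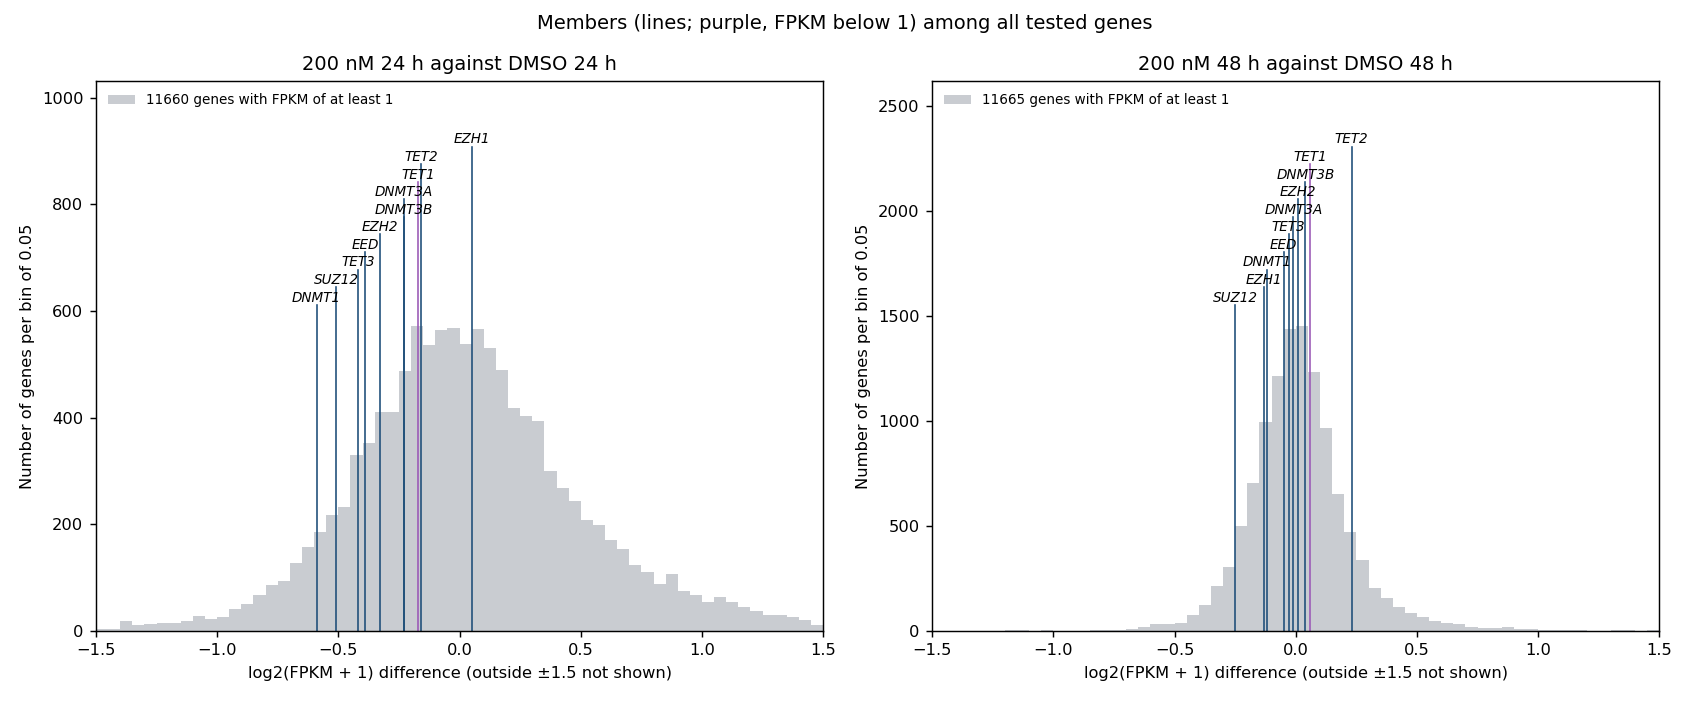
Number of genes (vertical axis, bins of 0.05) by difference in log2(FPKM + 1) (horizontal axis), for 200 nM against DMSO at 24 h (left) and 48 h (right), with genes beyond 1.5 not drawn. Lines mark the 10 members (purple for TET1, whose FPKM is below 1), and the heights of the lines only make room for the names. At 24 h, with this pseudocount, DNMT1 is farthest left at -0.59 and EZH1 is right of 0 at 0.05, while at 48 h the members lie between -0.25 and 0.23.

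At 48 h the members had no common direction against DMSO 48 h. At 100 nM, 3 of the 10 were lower, 6 were higher and TET3 was equal to its control, with 52.4% of genes lower. With median-of-ratios factors this became 1 lower and 9 higher. At 200 nM, 6 members were lower and 4 higher, with 48.6% of genes lower. The medians of the members were 0.04 and -0.02, against -0.01 and 0.01 for all tested genes. None was called, where 0.408% of genes were called lower and 0.0608% higher at the low dose, and 0.06% lower and 0.206% higher at the high dose.

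Among the PRC2 genes at 48 h, EZH2 and SUZ12 were farthest from their control, each at another dose. EZH2 values were 35.38, 28.71 and 35.66, so the library labelled 100 nM was below DMSO, with a difference of -0.29, and 200 nM was level with it. SUZ12 values were 34.26, 33.45 and 28.64, and here 200 nM was below, with a difference of -0.25. EED was close to its control, at 13.50, 13.25 and 13. EZH1 had 7.17, 7.98 and 6.45, differences of 0.14 and -0.13 whose signs were opposite to those at 24 h. Its counting intervals at 48 h held 0 (-0.01 to 0.31 and -0.33 to 0.02), as did that at 200 nM 24 h. The share of EZH1 in both EZH genes was 16.9%, 21.7% and 15.3%, and the value at 100 nM was the highest of the 6 libraries.

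DNMT1 values at 48 h were 53.64, 55.91 and 49.34, differences of 0.06 and -0.12. DNMT3A had 3.10, 3.35 and 3.06, and DNMT3B had 6.02, 6.12 and 6.24, so neither was far from its control. TET2 stepped up with the dose, from 2.16 over 2.43 to 2.71, differences of 0.12 and 0.23, and 88.6% of genes had a lower value than its difference at 200 nM. TET1 had 0.26, 0.33 and 0.31, and TET3 had 2.28, 2.28 and 2.21. A stepwise order downwards was seen for 2 members, EED and SUZ12, and for 11.3% of genes. An upward order was seen for 2 members, DNMT3B and TET2, and its share of all genes was not computed. Each order takes the labels at 48 h as given.

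**Figure D3:**
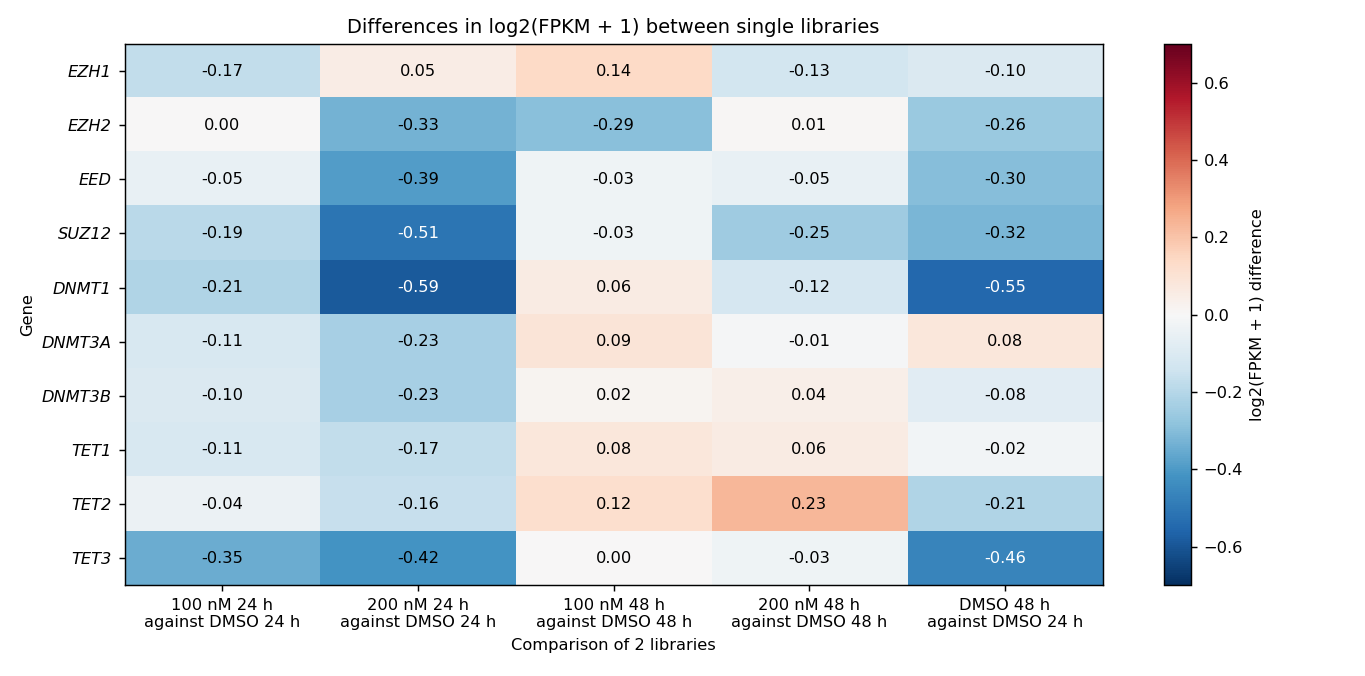
Difference in log2(FPKM + 1) for each gene (rows) in 5 comparisons between single libraries (columns), printed in each cell and coloured from blue (lower) to red (higher). DNMT1 is at -0.59 for 200 nM 24 h and at -0.55 for DMSO 48 h against DMSO 24 h, and the columns of PCI-24781 at 48 h hold both signs.

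The DMSO libraries also differed from each other. In DMSO 48 h, 9 of the 10 members were lower than in DMSO 24 h, with 50.2% of genes lower, and the median of the members was -0.24 against 0.00 for all genes. DNMT1 had a difference of -0.55, and 276 of 11490 genes, or 2.4%, were lower still. The differences were -0.46 for TET3, -0.32 for SUZ12, -0.30 for EED and -0.26 for EZH2, and DNMT3A was the exception at 0.08. No member was called, where 0.131% of genes were called lower and 2.49% higher. The highest value of EED, SUZ12, DNMT1, DNMT3B and TET3 was that in DMSO 24 h, as for 26.0% of genes.

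The differences at 24 h therefore depended on the reference. Against DMSO 48 h, DNMT1 differed by 0.34 at 100 nM 24 h and by -0.04 at 200 nM 24 h. For SUZ12 these were 0.13 and -0.19, for EZH2 0.27 and -0.07, and for TET3 0.11 and 0.04. The medians of the members became 0.12 and -0.08. With DMSO 24 h as reference for the 48 h libraries, the values share their control with the 24 h comparisons and with the DMSO comparison above, so they are given side by side only. DNMT1 then had -0.50 at 100 nM and -0.67 at 200 nM, SUZ12 had -0.35 and -0.57, EZH2 had -0.56 and -0.25, TET3 had -0.46 and -0.49, and EED had -0.32 and -0.35. EZH1 had 0.04 and -0.23. DNMT3A, DNMT3B, TET1 and TET2 were between -0.09 and 0.16. With 1 culture per condition, time in culture, differences between single cultures and exchanged labels cannot be told apart.

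The other PRC2 subunits were taken from lists. The histone-binding core subunits RBBP4 and RBBP7 had differences of -0.61 and -0.25 at 200 nM 24 h, and RBBP4 stepped down from 20.26 over 17.80 to 12.97. Of 7 accessory subunits 6 were measured, and 1 of them, PHF19, was called lower. PHF19 is a Polycomb-like protein that helps to recruit PRC2 to chromatin. Its FPKM was 62.12, 41.56 and 23.57 at 24 h, differences of -0.57 and -1.36. At 48 h it was 41.35, 40.40 and 34.22, differences of -0.03 and -0.27. The Polycomb-like paralogue MTF2 was higher at 24 h, with 9.29, 11.69 and 11.64, and AEBP2 had -0.37 at the high dose. The median of the 6 accessory subunits was 0.04.

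Enzymes and complexes that act on the same mark showed no common direction at 200 nM 24 h. The H3K27 demethylase genes KDM6A and KDM6B differed by -0.08 and 0.07. KDM6B was at 1.5 in DMSO 24 h and 3.19 in DMSO 48 h. Of 21 PRC1 subunits, which ubiquitinate histone H2A or bind methylated H3K27, 11 were lower and 10 higher, with a median of -0.01 and none called. The most negative were PCGF6 and L3MBTL2, of a variant PRC1 complex, at -0.80 and -0.79, and the most positive the chromodomain genes CBX6 and CBX7, at 0.54 and 0.50.

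**Figure D4:**
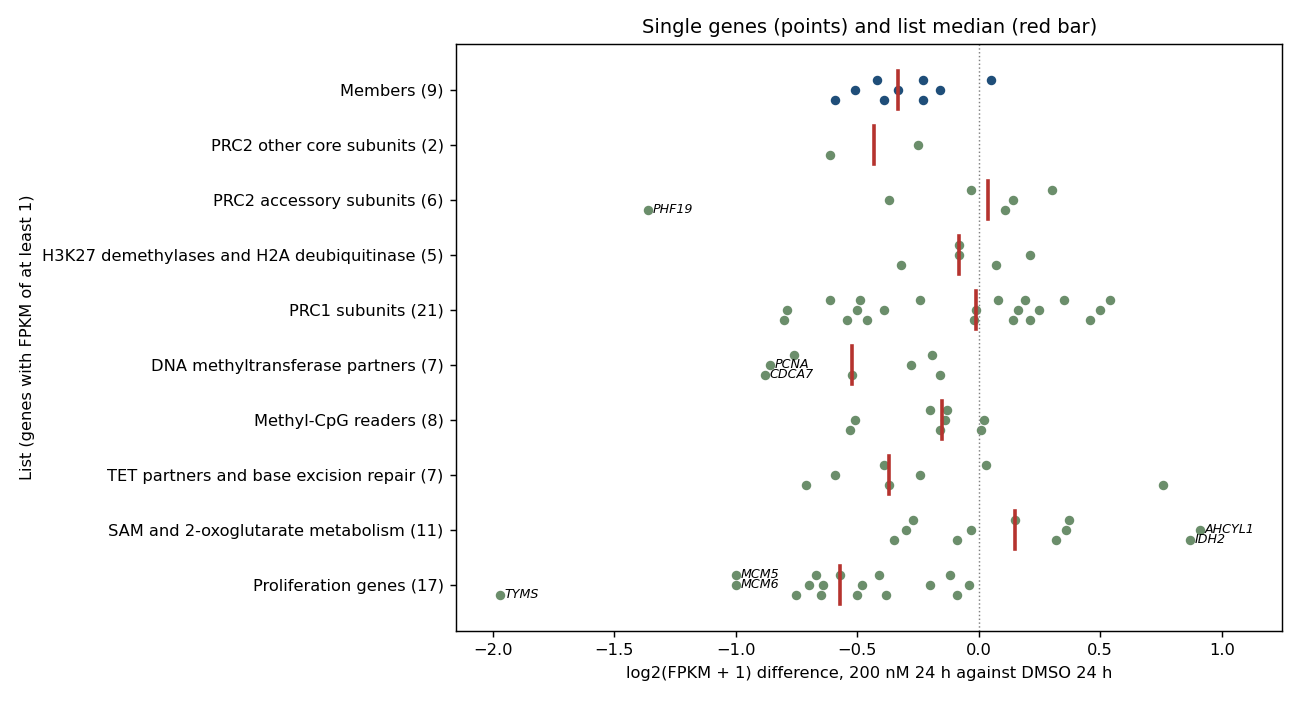
Difference in log2(FPKM + 1) between 200 nM 24 h and DMSO 24 h (horizontal axis) for single genes (points) of the members and of each list (rows, with the number of genes that reached an FPKM of 1), with medians as red bars. The medians are -0.33 for the 9 members tested, -0.52 for the DNA methyltransferase partners, -0.57 for the proliferation genes and -0.01 for the PRC1 subunits. Genes at least 0.85 from 0 are named.

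The partners of the DNA methyltransferases were lower at 200 nM 24 h. All 7 that reached an FPKM of 1 were lower, with a median of -0.52 against 0.01 for all tested genes, and none was called. UHRF1, which guides DNMT1 to newly replicated DNA, had 38.56, 33.74 and 22.39. PCNA, the replication clamp, had 128.25, 105.41 and 70.29, and CDCA7, a partner of the remodeller HELLS, had 32.24, 28.83 and 17.03. In DMSO 48 h all 7 were below DMSO 24 h, with a median of -0.35. At 200 nM 48 h all 7 were below DMSO 48 h, with a median of -0.09. DNMT3L, the inactive cofactor of the de novo enzymes, was listed at 0 in all libraries but 200 nM 48 h, where it had 0.07.

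Readers of DNA methylation and repair genes acting after the TET enzymes differed less uniformly. Of 8 methyl-CpG readers, 6 were lower and 2 higher at 200 nM 24 h, with a median of -0.15, and MBD3 and MBD4 were lowest at -0.53 and -0.51. Of 7 TET partners and base excision repair genes, 5 were lower, with a median of -0.37. The DNA ligase gene LIG3 had 9.23, 6.50 and 5.24 at 24 h. CXXC5, a CpG-binding zinc finger protein, went the other way, with 12.00, 14.87 and 20.99.

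Of 17 proliferation genes, all were lower at 200 nM 24 h, with a median of -0.57, and all were lower in DMSO 48 h than in DMSO 24 h, with a median of -0.28. At 100 nM 24 h 14 of the 17 were lower, with a median of -0.12. Against DMSO 48 h, where the members had no common direction, 14 were lower at 100 nM and 13 at 200 nM, with medians of -0.06 and -0.10. Their summed FPKM was 1452.58, 1284.10 and 977.74 at 24 h, then 1156.89, 1097.97 and 1055.04 at 48 h. The sum of the 10 members was 205.32, 185.56 and 149.02 at 24 h, then 157.77, 153.81 and 147.62 at 48 h. TYMS, thymidylate synthase, was called lower at 200 nM 24 h, with 38.36 against 152.80, as were the replication helicase genes MCM5 and MCM6. The part of proliferation in the differences of the members was not tested.

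Genes with a pattern like that of EZH2 or DNMT1 were sought among 4663 genes that reached an FPKM of 1 in all 6 libraries and had a range of at least 0.5 on the log2 scale. DNMT1 had the widest range of the members, 0.67. The genes nearest to it were SDC1, SPRYD4 and DHX37, with Pearson correlations of 0.998, 0.996 and 0.995 over the 6 libraries. SDC1 had 72.67, 58.39 and 43.27 at 24 h, then 43.67, 45.87 and 39.13 at 48 h. Nearest to EZH2 were NAV3, THUMPD1 and TNFRSF12A, with 0.989, 0.988 and 0.987. NAV3 had 7.73, 8.01 and 5.72 at 24 h, then 6.55, 4.69 and 6.43 at 48 h, with its lowest value at 100 nM 48 h like EZH2. These are descriptions over 6 libraries, picked as the highest of many.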

How the data were processed

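RNA-seq was analysed for 6 libraries of MDA-MB-231 cells, 1 per treatment and time. A sequencing company built them after mRNA enrichment or rRNA depletion. The authors deposited 1 FPKM value for every gene, with 2 decimals. The submitters' processing notes name Bowtie2, RSEM and hg19. Versions and filters are not given in the sources used here.

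Symbols came from RefSeq (GRCh38.p14) by NCBI Gene ID for 16585 of 16623 genes. Differences were computed for all genes as log2(FPKM + 1) of one library minus that of another, which understates those of low genes. A gene was tested when it reached an FPKM of 1 in one of the libraries compared, and called at 2-fold. With 1 library per condition there was no statistical test, so "tested" means only that a gene passed this filter. Depth was inferred from values below 0.4 FPKM of genes with 1 transcript of 500 to 1500 bases (GENCODE 29) and is approximate. RSEM divides shared reads between similar genes, and SUZ12P1 and EZH2P1 are not among the genes analysed here, so values of SUZ12 and EZH2 may hold reads of such copies.

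The members and gene lists were chosen with earlier results of these data known. The genes named are the members, list genes called under PCI-24781, those with the 2 largest differences in each direction per list at 200 nM, as many as needed, and the 3 genes most correlated with EZH2 and DNMT1. UHRF1, DNMT3L, HAND1 and NNMT were added after their values were seen. AHCY is also named outside these rules, beside the related AHCYL1. Alternatives were pseudocounts of 0.1 and 0.01, no filter, a filter on both libraries, TPM, median-of-ratios factors, a 1.5-fold threshold and other DMSO references. Only the fold call was tested on simulated data, with changes larger than those of the members. The depth estimate, the intervals and the search for words were not tested in this way. Software was Python 3.11.15 with pandas 2.3.3, numpy 2.4.6 and matplotlib 3.10.9.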

Additional observations from a re-analysis of the deposited data

Results flagged for a closer look

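Some members had one sign at both doses of 24 h and the other sign at both doses of 48 h, each against DMSO of the same time. For DNMT3B, the differences of -0.10 and -0.23 at 24 h stood against 0.02 and 0.04 at 48 h, so at 200 nM the later one was higher by 0.28. For TET1, -0.11 and -0.17 stood against 0.08 and 0.06, or 0.22 at 200 nM, with an FPKM of 0.33 or less. For TET2, -0.04 and -0.16 stood against 0.12 and 0.23, or 0.39 at 200 nM. For DNMT3B and TET2 the pattern depended on the reference. Against DMSO 24 h, DNMT3B had -0.06 and -0.04 at 48 h and TET2 had -0.09 and 0.02, and against DMSO 48 h TET2 had 0.17 and 0.05 at 24 h. The counting intervals at 48 h held 0 for DNMT3B (-0.23 to 0.28 and -0.21 to 0.31) and TET1 (-0.23 to 0.92 and -0.35 to 0.86). For TET2 they were -0.04 to 0.38 and 0.12 to 0.53. At 24 h the intervals of each of these genes held 0 at 100 nM and lay off 0 at 200 nM. The share of all genes with such a change of sign was not computed. The difference between the times was not tested, since each dose and time has 1 library, and both doses of a time share their DMSO library.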

How the results depend on the processing

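No paired analysis was possible because there are no replicates to pair. The number of members called was 0 in all 5 comparisons with each pseudocount, filter and scaling, and in the 4 comparisons with PCI-24781 with each other reference. A 1.5-fold threshold gave 1 member lower at 200 nM 24 h. Medians of the members stayed within 0.1 of their value with each pseudocount, filter and scaling, and the nearest to that limit was -0.38 at 200 nM 24 h with a pseudocount of 0.1 or 0.01. The reference mattered. With the DMSO library of the other time, medians for 24 h were 0.12 (low dose) and -0.08 (high dose), and those for 48 h were -0.21 and -0.24. With the mean of both DMSO libraries, medians for 48 h were -0.10 and -0.15. Of 40 single differences, 13 had the other sign with the other DMSO library and 7 with the mean of both, against 1 of 50 with median-of-ratios factors. These counts used values rounded to 2 decimals, so a difference that rounds to 0.00 was never counted. Unrounded, median-of-ratios factors changed the members lower from 9 to 10 at both doses of 24 h. At 100 nM 48 h they changed the members lower from 3 to 1. Depth limits TET1, at about 55 fragments or fewer per library, and DNMT3A, at about 107 or fewer by its shortest transcript. A longer transcript of DNMT3A would give more fragments.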

Other observations

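On a list of developmental genes that PRC2 is known to silence, most of those measured were low in all libraries. Whether PRC2 silences them in these cells was not measured. Of 17 listed developmental regulators, 11 were measured, 3 reached an FPKM of 1 in the comparison of 200 nM 24 h with DMSO, and none was called. Of these 3, GATA6 was higher, while IRX3 and FOXA2 were lower at -0.20 and -0.07, and the median was -0.07. GATA6, an endoderm factor, had 1.24, 2.07 and 2.83 at 24 h in the order DMSO, 100 nM, 200 nM, then 2.07, 1.45 and 1.97 at 48 h. HAND1, a heart and placenta factor chosen after its values were seen, was listed at 0 in DMSO 24 h and had 0.13 and 0.82 with PCI-24781. At 48 h it had 0.13 in DMSO, was listed at 0 for 100 nM and had 0.29 at 200 nM. FOXA2 was well expressed, between 19.67 and 32.78.

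Of 12 germline genes known to be silenced by DNA methylation in somatic cells, 11 were measured, and their summed FPKM was between 0.62 and 2.04. TEX19 was the one that reached an FPKM of 1. It had 0.06, 0.23 and 0.59 at 24 h, then 0.29, 0.26 and 1.33 at 48 h, and was highest at 200 nM each time. On the list for cofactor metabolism, AHCYL1 had 72.08, 100.18 and 136.60 at 24 h, then 98.59, 94.16 and 114.02 at 48 h. The related gene AHCY had 77.63, 65.76 and 64.22 at 24 h, then 65.43, 66.40 and 57.85 at 48 h. The part of AHCYL1 in cofactor metabolism was not tested. IDH2, which makes 2-oxoglutarate, had 8.19, 11.86 and 15.79 at 24 h, then 14.20, 14.41 and 13.43 at 48 h. NNMT, which uses S-adenosylmethionine, was at 3.37 in DMSO 24 h and 13.51 in DMSO 48 h and was called higher between these libraries.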
